A study of Mus musculus with 35 samples.

Results

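The 9 genes described here, of 23366 counted, carry a Hedgehog signal from the cell surface to the nucleus: the receptor Ptch1, the co-receptors Boc, Gas1 and Cdon, the transducer Smo, the transcription factors Gli1, Gli2 and Gli3, and the Hedgehog-binding protein Hhip. They were chosen by name, as a list of Hedgehog receptors, Gli factors and targets, though earlier results of these data were known by then. All 9 were found in the table, and all 9 passed the filter on low counts. They were read in cranial neural crest, a migratory cell population that supplies most of the facial skeleton and connective tissue. The cells were sorted from mouse embryos at stage E12.5, with and without the X-linked gene Kdm6a, whose product UTX removes methyl groups from histone H3 at lysine 27.

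The female knockout (fko) carried Utx fl/fl with Wnt1-Cre and the male knockout (mko) carried Utx fl/y with Wnt1-Cre. They were set against wild-type males (wt) with Wnt1-Cre, and a Rosa-Tomato reporter was present in every group. Each group had 2 RNA-seq libraries. Wnt1-Cre acts in the neural crest lineage and in parts of the dorsal brain, so a Tomato-positive sort can hold some brain cells beside crest, and UTX is lost in the cells that express Cre and not in their surroundings. Nothing in the labels says whether the 2 libraries of a group came from different embryos or whether embryos were pooled, so p-values measure only the spread between these libraries. Female knockouts were compared with male wild types, so sex and genotype cannot be told apart in that comparison.

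In Hedgehog signalling, a secreted ligand such as Shh binds Ptch1 with the help of Boc, Gas1 and Cdon. Free Ptch1 holds Smo in check, and once ligand is bound Smo acts through the primary cilium to turn Gli proteins from repressors into activators. Ptch1, Gli1 and Hhip are themselves direct targets in many tissues, so their transcripts are widely used as a readout of the pathway, and in the face Shh from epithelium and forebrain acts on crest-derived mesenchyme.

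Reads on genes numbered from 14513993 to 16350892 per library. The gene-level Kdm6a reading was 52.9 and 62.4 CPM (reads scaled to a common library size after TMM normalization, the unit of every level below) in the libraries labelled fko, 40.5 and 31.9 in those labelled mko, and 45.6 and 51.6 in wt. Its reads cover exons on both sides of any floxed stretch, and the exon that was deleted is not given in the sources used here, so this level does not check the deletion. Uty, a Y-linked gene, was read at 0 and 0.646 CPM in the fko libraries, and at 33.3 CPM or more in every mko and wt library. Facial mesenchyme markers were abundant, with the summed level of all 7 markers between 1776 and 1979 CPM in knockout libraries and at 1662 and 1503 CPM in wt. Blood markers summed to at most 0.57 CPM. One of them, Hba-a1, had 0 reads in every library, and whether the counting could place reads on it was not tested. Reads of Rn45s, the precursor of ribosomal RNA, also differed with genotype, at 35310 and 29810 CPM in fko, 50820 and 32370 CPM in mko, and 9028 and 3559 CPM in wt (log2 fold change 2.55 for the mean of both knockouts, edgeR adjusted p = 0.0186). The 10 genes with most reads took 6.52% to 8.81% of reads in the knockout libraries, and 4.4% and 3.27% in wt. This difference runs through every contrast with wt, and its part in the results below was not tested. The 6 libraries also formed 2 sets by the share of reads outside genes, which was 21.3% to 22% in set A (fko1, mko2, wt1) and 27.5% to 27.8% in set B (fko2, mko1, wt2). No label names these sets, and each holds 1 library of every group.

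For 7 of the 9 genes, all but Gli1 and Boc, the RefSeq table of build GRCm38.p6 gives a window of 300 bases, from 250 before to 50 after the gene's start. Windows are shown for Ptch1 and Hhip, the negative-feedback targets, and for Gas1, the member that stood highest over wild type. They are written 5′ to 3′ on the gene's own strand, with CCACCC or its reverse complement GGGTGG, the core of the GLI binding site, in capitals. The windows lie at chr13:63565686-63565985 (minus strand) for Ptch1, chr8:80057959-80058258 (minus strand) for Hhip and chr13:60177486-60177785 (minus strand) for Gas1.
Ptch1: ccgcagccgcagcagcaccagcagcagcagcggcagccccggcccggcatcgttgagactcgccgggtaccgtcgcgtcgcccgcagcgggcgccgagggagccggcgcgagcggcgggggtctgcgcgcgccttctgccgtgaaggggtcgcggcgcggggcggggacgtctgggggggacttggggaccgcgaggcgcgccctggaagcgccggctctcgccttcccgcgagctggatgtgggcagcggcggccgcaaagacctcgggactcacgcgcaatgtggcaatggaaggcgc
Hhip: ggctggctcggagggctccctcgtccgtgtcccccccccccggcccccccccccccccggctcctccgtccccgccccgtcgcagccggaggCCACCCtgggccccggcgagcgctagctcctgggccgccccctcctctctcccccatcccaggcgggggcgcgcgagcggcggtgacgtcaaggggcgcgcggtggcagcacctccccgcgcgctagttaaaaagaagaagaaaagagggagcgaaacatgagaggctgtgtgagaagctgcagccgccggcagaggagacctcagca
Gas1: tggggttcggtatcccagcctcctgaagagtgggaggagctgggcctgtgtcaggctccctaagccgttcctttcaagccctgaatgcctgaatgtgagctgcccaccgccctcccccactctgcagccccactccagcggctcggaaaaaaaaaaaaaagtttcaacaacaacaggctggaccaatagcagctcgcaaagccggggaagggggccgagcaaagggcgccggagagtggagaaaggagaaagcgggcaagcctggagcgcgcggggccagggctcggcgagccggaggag

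The GLI consensus GACCACCCA was searched on both strands and had 0 matches in the 7 windows, against a match in 0.253% of 32851 RefSeq windows of the same length. Its core CCACCC, which lies inside the consensus, was found in 31.5% of all windows. The core was present in 4 of the 7, at 1 place each in Smo, Gli3 and Hhip and at 2 places in Gli2, and was not found in the windows of Ptch1, Gas1 and Cdon. In Hhip the match lay 158 bases before the gene's start. The Ptch1 window held 47 CpG pairs and 76.3% G and C, against a median of 7 pairs and 52.7% over all windows, and fewer CpG pairs were found in Hhip (30), Gas1 (17) and Cdon (3). These are letters in a short window and carry no measurement from the sorted cells.

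Most receptors and the Gli factors lay close to wild type in the knockouts, while the ligand gene Shh was lower in every knockout library. Ptch1 stood furthest from wild type among the 9, at a log2 fold change of -0.36 for the mean of both knockouts. None of the 9 genes passed an adjusted p of 0.05 (edgeR quasi-likelihood test, Benjamini-Hochberg over 14521 genes) for the mean of both knockouts against wt, a contrast in which 5.11% of all tested genes passed. Likewise 0 of the 9 passed for fko against wt (1.12% of all genes), for mko against wt (2.34%) and for fko against mko (0.0344%). DESeq2 called 0 of the 9 in each of these 4 contrasts. These fits held no term for the library set. With the set as a term, a fit described under Ptch1, edgeR called Ptch1 lower in each contrast with wt. Its adjusted p for the mean of both knockouts was 0.0058, where 16.3% of all genes were called lower. That fit also called Gas1 higher for mko (edgeR adjusted p = 0.0386), where 12% of all genes were called higher. Without adjustment, Ptch1 alone of the 9 had a p under 0.05 for the mean of both knockouts and for mko, against 26.1% and 20.2% of all genes, and 0 of the 9 did for fko (19.6% of all genes) or for fko against mko (1.72%). The median log2 fold change of the 9 was -0.03 for the mean of both knockouts, -0.06 for fko and -0.02 for mko, and the median over all genes was 0.01 in each of these contrasts. The 3 contrasts with wt share its 2 libraries.

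**Figure D1:**
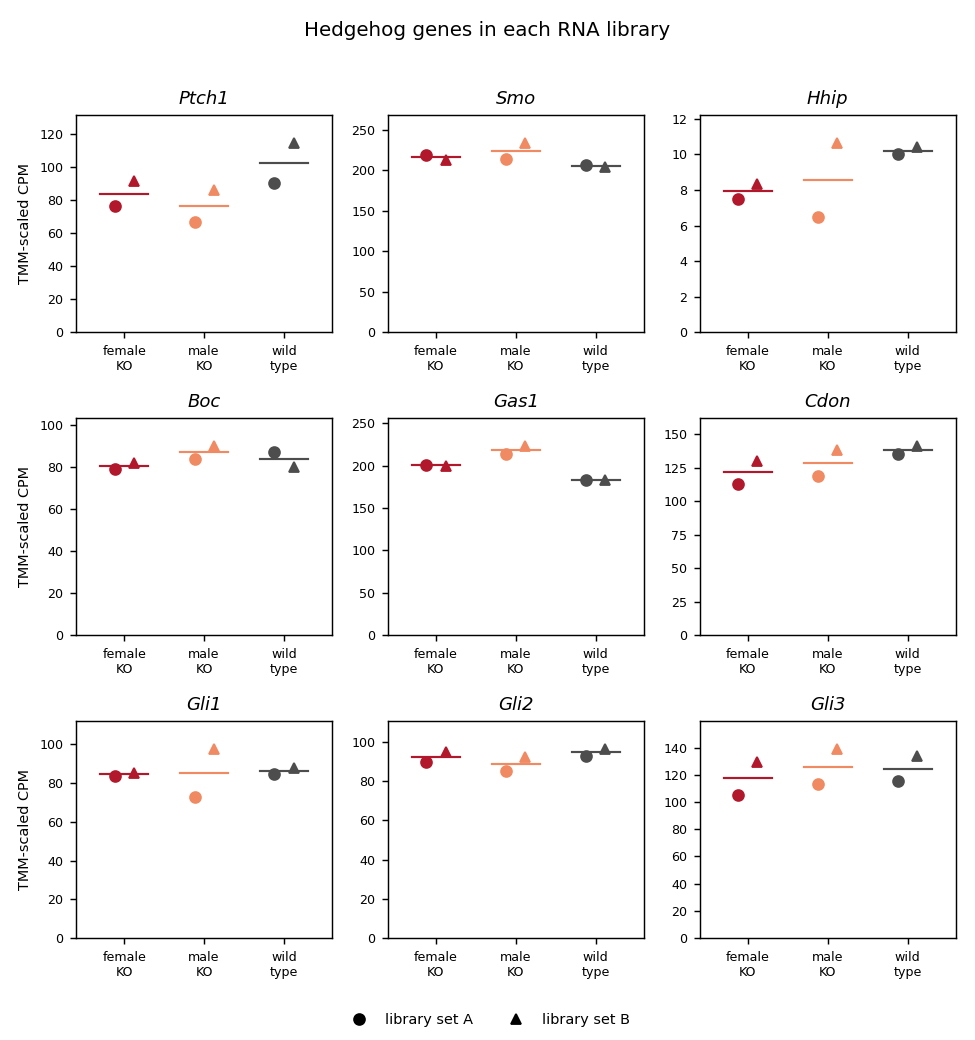
Level of each of the 9 Hedgehog genes (CPM on TMM-scaled library totals, 1 panel per gene) in female knockout, male knockout and wild-type libraries, with 2 points a group, a bar at the mean, and the library set marked. Ptch1 ran from 66.7 to 114 CPM over the 6 libraries, while Gli2 stayed between 85.1 and 96.4 CPM.

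Shh, the ligand, was lower in the knockouts. It had 3.26 and 2.46 CPM in fko, 2.45 and 2.34 CPM in mko, and 7.29 and 9.35 CPM in wt. All 4 knockout libraries lay below both wild-type libraries. Shh fell by 1.66 on the log2 scale for the mean of both knockouts (SE 0.206, edgeR adjusted p = 0.00626), by 1.54 for fko (adjusted p = 0.034) and by 1.79 for mko (adjusted p = 0.0176). Its call for fko was lost in edgeR without wt2, mko1 or mko2, and when the fit held only the groups compared (adjusted p = 0.0808), and its call for mko was lost without mko1 or mko2. The summed level of 6 markers of central nervous system progenitors moved with it. The sum was 83.1 and 101 CPM in fko, 89.8 and 108 CPM in mko, and 144 and 174 CPM in wt. Of these markers, 4 of the 5 that were tested fell for the mean of both knockouts, against 4.04% of all genes. Their part in the Shh result was not tested. In these bulk samples, fewer cells of a type and less RNA per cell cannot be told apart. Of the other 6 tested genes for ligands and their release, 0 passed in edgeR, against 5.11% of all genes for the mean of both knockouts. In that contrast 2 of the 6 had an unadjusted p under 0.05, against 26.1% of all genes. These were Scube3 and Scube1, secreted proteins that help to release Shh from the cells that make it, with log2 fold changes of -0.38 (edgeR adjusted p = 0.106) and -0.34 (adjusted p = 0.154), and both were called lower with the library set as a term, a fit described under Ptch1 (adjusted p = 0.00989 and 0.0104). Disp1, which exports the ligand, had 0 reads in every library. Whether the counting could place reads on it was not tested, so this does not show that the gene was silent.

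Ptch1, the receptor that restrains Smo and is induced by the signal, had 76.2 and 91.3 CPM in fko, 85.9 and 66.7 CPM in mko, and 90.2 and 114 CPM in wt. Both mko libraries lay below both wt libraries, while 1 fko library (fko2) lay just above wt1, so that the 4 knockout libraries overlapped wild type. The log2 fold change was -0.36 for the mean of both knockouts (SE 0.153, 95% interval -0.70 to -0.01, unadjusted p = 0.0454 and edgeR adjusted p = 0.184). It was -0.29 for fko (edgeR adjusted p = 0.375) and -0.42 for mko (adjusted p = 0.235). Ptch1 was also higher in set B than in set A, at 97.2 ± 15.1 CPM against 77.7 ± 11.8 CPM (SD, n = 3 libraries each), a log2 difference of 0.32 (edgeR adjusted p = 0.0203), and 14.4% of all genes passed in that contrast. Within the sets the knockouts lay below wild type each time. In set A the log2 difference was -0.24 for fko and -0.44 for mko, and in set B it was -0.32 for fko and -0.41 for mko. With the set as a term, edgeR called Ptch1 lower for the mean of both knockouts (-0.35, adjusted p = 0.0058), for fko (-0.28, adjusted p = 0.0334) and for mko (-0.42, adjusted p = 0.00817). That fit called 16.3%, 11.1% and 12.7% of all genes lower in these contrasts, and 32.6%, 23.3% and 24.7% in either direction. Its call of Ptch1 was lost for the mean of both knockouts without wt1 (adjusted p = 0.0518) or wt2 (0.0755), for fko without wt1, wt2, fko1 or fko2, and for mko without wt2 (0.0618).

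A difference kept in all 4 within-set comparisons was not particular to Ptch1. Of all genes, 29.6% were lower in all 4 and 31.9% were higher in all 4. Among the 9, Ptch1 was one of 3 that were lower in all 4, and 2 were higher in all 4.

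Gas1, a lipid-anchored co-receptor that aids Hedgehog binding, had 201 and 199 CPM in fko, 223 and 213 CPM in mko, and 183 CPM in both wt libraries. All 4 knockout libraries lay above both wild-type libraries, as they did for Smo. Thus 2 of the 9 genes stood above wild type without overlap, against 18.8% of all genes, while 0 stood below it, against 20.1%. This holds for TMM-scaled levels only, since on plain library totals fko1 lay below both wild-type libraries for Gas1 and for Smo. The log2 fold change of Gas1 was 0.19 for the mean of both knockouts (95% interval -0.05 to 0.43, edgeR adjusted p = 0.284), 0.13 for fko and 0.25 for mko (adjusted p = 0.286). Over all the alternative fits it ran from 0.07 to 0.21 for the mean of both knockouts and from 0.01 to 0.14 for fko. With the set as a term, edgeR called Gas1 higher for mko (adjusted p = 0.0386, where 12% of all genes were called higher) and not for the mean of both knockouts (0.0516), and the mko call was kept in 2 of the 6 fits that left out 1 library. The summed facial mesenchyme markers were higher in the knockouts too, at 1803 and 1776 CPM in fko, 1979 and 1842 CPM in mko, and 1662 and 1503 CPM in wt, and their part in the Gas1 values was not tested.

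Boc and Cdon, related transmembrane co-receptors, did not pass in any contrast, with or without the set in the fit of all 6 libraries. Boc had 79.2 and 82.2 CPM in fko, 90.1 and 84.1 CPM in mko, and 87.5 and 80.4 CPM in wt. Its groups overlapped, and the log2 fold change for the mean of both knockouts was 0.00, with a 95% interval of -0.25 to 0.24. Cdon had 113 and 130 CPM in fko, 139 and 119 CPM in mko, and 135 and 141 CPM in wt. Both fko libraries lay below wild type, as for Hhip, which makes 2 of the 9 genes, against 25.7% of all genes, and mko overlapped it. The log2 fold change of Cdon was -0.14 for the mean of both knockouts (95% interval -0.42 to 0.13, edgeR adjusted p = 0.459).

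Smo, the transmembrane protein that passes the signal on, had 220 and 213 CPM in fko, 234 and 215 CPM in mko, and 207 and 205 CPM in wt. The 6 values spanned little, and the 4 knockout values were the higher ones. The log2 fold change was 0.10 for the mean of both knockouts (95% interval -0.15 to 0.35, edgeR adjusted p = 0.591), and its sign depended on the scaling, at -0.02 when library totals were used with no TMM factors. That scaling moved the median of all genes to -0.10 for the mean of both knockouts, so Smo was above the median gene under either one.

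The Gli factors were close to wild type. Gli1, which acts only as an activator and is the target most used as a readout of the pathway, had 83.8 and 85.0 CPM in fko, 97.5 and 72.5 CPM in mko, and 84.8 and 87.5 CPM in wt. The highest and the lowest reading were both in mko, and both other groups lay between them. Its log2 fold change was -0.02 for the mean of both knockouts, with a 95% interval of -0.33 to 0.28, and its fold lay between 0.795 and 1.22. Gli2, the main activator at the start of a response, had 89.6 and 94.7 CPM in fko, 92.2 and 85.1 CPM in mko, and 92.9 and 96.4 CPM in wt, with a log2 fold change of -0.07 (95% interval -0.31 to 0.18). Both mko libraries lay below wild type for Gli2, as for Ptch1, which makes 2 of the 9 genes, against 28.1% of all genes. Gli3, the main source of Gli repressor, had 105 and 130 CPM in fko, 139 and 113 CPM in mko, and 115 and 134 CPM in wt. Its groups overlapped, with a log2 fold change of -0.03 (95% interval -0.35 to 0.29). In all 3 groups the Gli3 library of set B was the higher one, and set B stood above set A at 134 ± 4.59 CPM against 111 ± 5.17 CPM (SD, n = 3 libraries each), a log2 difference of 0.27 (edgeR adjusted p = 0.0262).

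Hhip, a membrane-bound protein that binds and withholds Hedgehog ligands and is induced by them, was read at low depth, with 102 to 163 reads per library. It had 7.51 and 8.33 CPM in fko, 10.6 and 6.46 CPM in mko, and 10.0 and 10.4 CPM in wt. Both fko libraries lay below wild type, and mko held the highest and the lowest value of the 6. The log2 fold change was -0.31 for the mean of both knockouts (SE 0.209, 95% interval -0.79 to 0.16, edgeR adjusted p = 0.35), so that a fold between 0.578 and 1.12 was allowed.

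**Figure D2:**
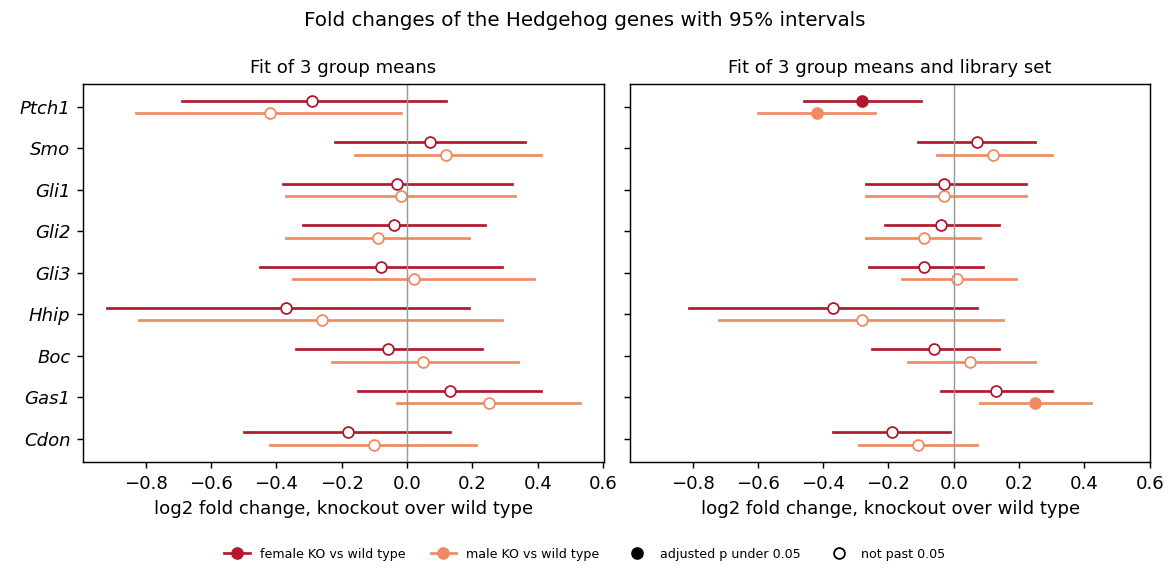
Log2 fold change of each gene in female knockouts and in male knockouts over wild type, with 95% intervals (lines), from edgeR fits of 3 group means without (left) and with (right) the library set. Filled points passed an adjusted p of 0.05: Ptch1 in both sexes and Gas1 in males, in the right panel only.

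Female and male knockouts were close to each other at all 9 genes. The log2 differences, female over male, ran no further from 0 than 0.13, the value of Ptch1, whose 95% interval was -0.27 to 0.54. Every one of the 9 had an edgeR adjusted p of 1 in that contrast. These intervals leave room for differences of the size seen between knockout and wild type, so the test does not show that the sexes were alike.

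Further genes of the pathway were read from lists by role. Of these, 13 tested genes were listed as acting between Smo and Gli or at the cell surface. For the mean of both knockouts, 2 of the 13 fell and 0 rose, where edgeR called 4.04% of all genes lower and 1.07% higher. The median log2 fold change of the 13 was 0.00, against 0.01 for all genes. Lrp2, a large endocytic receptor that aids Shh uptake in the forebrain, had 3.003 and 3.166 CPM in fko, 2.79 and 2.47 CPM in mko, and 5.07 and 7.11 CPM in wt (log2 fold change -1.09, edgeR adjusted p = 0.026). Stk36, on the list as the mouse counterpart of fly Fused, had 21.9 and 24.6 CPM in fko, 20.3 and 19.8 CPM in mko, and 28.8 and 37.1 CPM in wt (-0.61, edgeR adjusted p = 0.0411). Whether mouse Hedgehog signalling needs Stk36 was not tested, so its fall is no measure of the pathway. For both genes all 4 knockout libraries lay below both wild-type libraries. The central nervous system progenitor markers given beside Shh were lower in the same 4 libraries, and their part in these falls was not tested. Each of these calls was lost without wt2, mko1 or mko2, and that of Stk36 also with no filter on low counts (adjusted p = 0.0557). The next smallest p was that of Gsk3b, a kinase that helps to turn Gli proteins into repressors, at -0.42 (edgeR adjusted p = 0.183). In fko and mko taken singly, 0 of the 13 passed in edgeR, against 1.12% and 2.34% of all genes. An unadjusted p under 0.05 was found for 2 of the 13 in each, against 19.6% and 20.2% of all genes. DESeq2 called Lrp2 and Stk36 in mko. With the library set as a term, 3 of the 13 were lower (Lrp2, Stk36 and Gsk3b) and 1 was higher (Prkaca, a catalytic subunit of protein kinase A, adjusted p = 0.039) for the mean of both knockouts, where that fit called 32.6% of all genes.

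Genes of the primary cilium, in which the signal runs in mammals, gave 0 calls among 15 tested for the mean of both knockouts (edgeR). In that contrast 5.11% of all genes passed. Of the 15, 1 had an unadjusted p under 0.05, against 26.1% of all genes, and their median log2 fold change was -0.07. Those with the smallest p were Tmem67 of the transition zone (-0.39, edgeR adjusted p = 0.132) and the intraflagellar transport genes Ift88 (-0.23, 0.224) and Ift140 (0.23, 0.226). With the library set as a term, edgeR called 4 of the 15, while it called 32.6% of all genes in either direction. Of the 4, Tmem67 (adjusted p = 0.0172), Dync2h1 (0.0381) and Kif3a (0.0434) were lower and Ift140 (0.041) was higher.

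Targets fell into groups by tissue. Among 8 targets used in many tissues, 1 fell (Jag2) and 0 rose for the mean of both knockouts, where edgeR called 4.04% of all genes lower and 1.07% higher. All 8 had a negative log2 fold change there, where 48.9% of all genes did, but some values lay as near 0 as -0.02. All 8 were also negative for fko (48.7% of all genes), and 6 of 8 were for mko (49%). Jag2, a Notch ligand, had 10.8 and 11.4 CPM in fko, 9.47 and 10.9 CPM in mko, and 14.5 and 22.3 CPM in wt (log2 fold change -0.79, edgeR adjusted p = 0.0481), a call that was lost without wt2, mko1 or mko2 and with no filter (0.0601). Nr2f1, a nuclear receptor of neural and crest cells, stood at -0.38 and did not pass (edgeR adjusted p = 0.112), nor did the cyclin gene Ccnd2 at -0.24 (adjusted p = 0.243). With the library set as a term, edgeR called 3 of the 8 lower for the mean of both knockouts, namely Jag2, Nr2f1 (adjusted p = 0.00868) and Ccnd2 (0.0252). It called 16.3% of all genes lower there.

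The 7 regulators of facial mesenchyme that need Hedgehog signals, mostly forkhead genes, had a median log2 fold change of 0.23 for the mean of both knockouts. In edgeR 0 passed, against 5.11% of all genes, and 2 of 7 had an unadjusted p under 0.05, against 26.1% of all genes. Foxc2 had 35.4 and 30.8 CPM in fko, 29.2 and 23.6 CPM in mko, and 18.4 and 20.6 CPM in wt. Its 4 knockout values lay above both wild-type values, with a log2 fold change of 0.60 and an edgeR adjusted p of 0.0508, just over the threshold, and DESeq2 placed it past the threshold at 0.0186. Osr2 of the palate and Foxd2 stood at 0.32 each (edgeR adjusted p = 0.162 and 0.247). With the library set as a term, edgeR called 2 of the 7 higher, Foxc2 (adjusted p = 0.00733) and Osr2 (0.0427). It called 16.4% of all genes higher in that contrast. The facial mesenchyme markers moved with this list, with a median log2 fold change of 0.26 and all 7 above 0, and their part in its values was not tested.

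The ventral neural tube regulators, listed as dependent on Hedgehog signal, had the lowest median of the lists, at -1.60 for the mean of both knockouts. In that contrast 5 of 8 tested fell, against 4.04% of all genes, and 0 rose. The log2 fold change was negative for 7 of 8, against 48.9% of all genes. For fko 2 of 8 fell (0.82% of all genes) and for mko 4 of 8 (1.96%). Olig2, of motor neuron and oligodendrocyte progenitors, had 2.35 and 2.20 CPM in fko, 3.88 and 2.98 CPM in mko, and 9.06 and 9.67 CPM in wt (-1.74, edgeR adjusted p = 0.00428). The others that fell were Shh, Foxa1 of the floor plate (-1.73, edgeR adjusted p = 0.0151), Nkx2-2 of ventral progenitors (-1.66, 0.023) and Sim1 (-1.28, 0.0364). For the mean of both knockouts, the calls of Nkx2-2 and Sim1 were lost without wt2 or mko1, and that of Sim1 also without mko2. All 4 calls for mko were lost without mko1 or mko2, and that of Nkx2-2 also without wt2. With the library set as a term, edgeR called 7 of the 8 lower for the mean of both knockouts, against 16.3% of all genes. The progenitor markers of the central nervous system given beside Shh moved with this list, as did Rn45s in the opposite direction, and their part in its values was not tested.

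**Figure D3:**
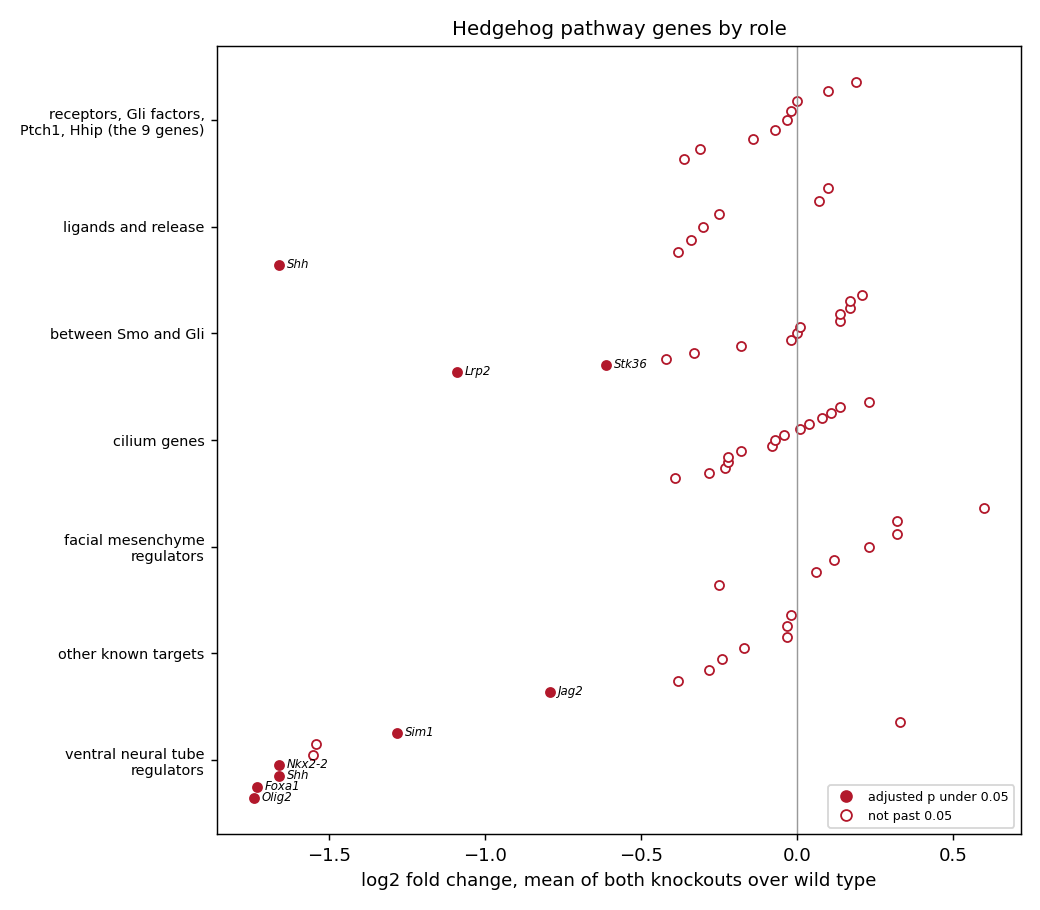
Log2 fold change of the mean of both knockouts over wild type for every tested gene of the Hedgehog lists, 1 point per gene, in rows by role. Filled and named points passed an adjusted p of 0.05 in edgeR, and Shh, which has 2 roles, appears in both rows. The 9 receptor, Gli and feedback genes lie between -0.36 and 0.19, while 5 of the ventral neural tube genes lie at or below -1.28 and passed.

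**Figure D4:**
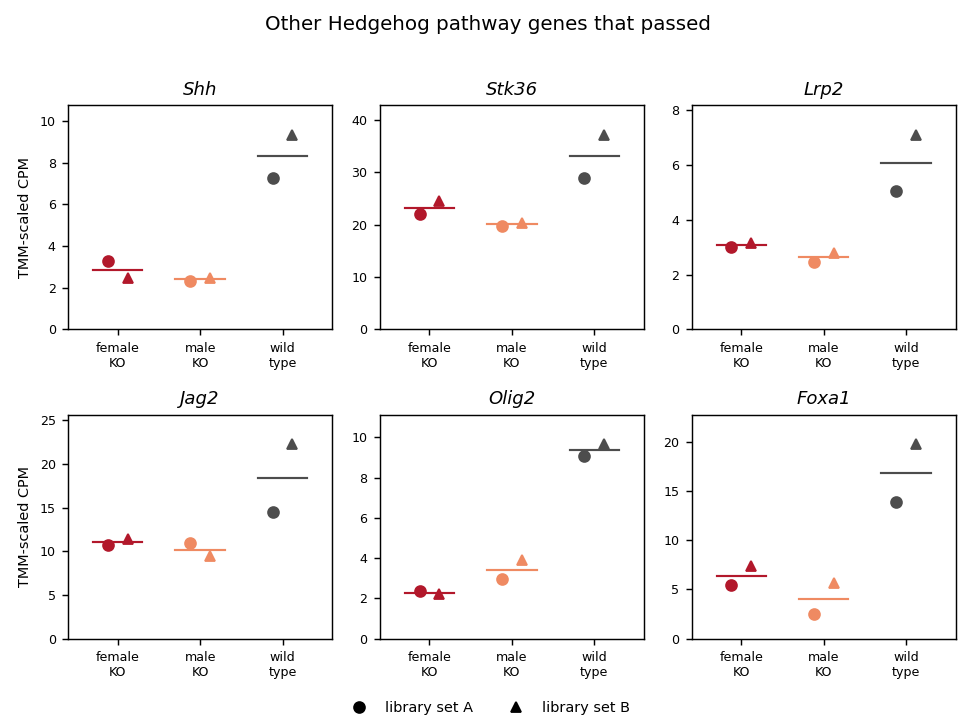
Level (CPM on TMM-scaled library totals) of Shh, Stk36, Lrp2, Jag2, Olig2 and Foxa1 in female knockout, male knockout and wild-type libraries, 2 points a group. They are 6 of the genes on the pathway lists that passed for the mean of both knockouts. In every panel all 4 knockout points lie below both wild-type points, as for Shh at 2.34 to 3.26 CPM against 7.29 and 9.35 CPM.

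The genes most like the readout in profile were found by the root mean square difference of centred log2 CPM over the 6 libraries, among 11490 genes with a mean of at least 5 CPM. The mean of Ptch1, Gli1 and Hhip stood at -0.14 and 0.01 in fko, 0.16 and -0.34 in mko, and 0.08 and 0.23 in wt, so that mko2 was lowest and wt2 highest. The nearest genes were Nadsyn1 (0.0345), Prr14l (0.0381), Aspm (0.041), Cacna1g (0.0457) and Zcchc11 (0.0488). For Gli1 alone the nearest were Mrc2 (0.0246), Eogt (0.0295), Zbtb4 (0.031), Arhgap31 (0.0326) and Tpcn1 (0.0357). With 6 libraries and this many genes, such closeness describes these libraries only.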

How the data were processed

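RNA-seq libraries were made with a stranded mRNA kit, per the labels. Per the submitters' processing notes, the tools for the series were HTSeq, TopHat2, Trimmomatic, Bowtie2, SAMtools, MACS2 and bedtools, without versions, and the build was mm9. The authors deposited unnormalised read counts per gene for the 6 RNA libraries, with 5 HTSeq summary lines, which were left out of totals and tests. The share of reads outside genes was 21.3% to 27.8%. The strand setting and annotation of the counting are not given in the sources used here. In RefSeq, each of the 9 genes but Ptch1 and Gas1 overlaps another gene. Gli1 overlaps Arhgap9, and Boc overlaps Gm30064 and Mir3081. Only for Gli1 and Boc was an overlapping gene, 1 each, also among the genes counted, so some of their reads may be uncertain. Chromatin files were not used here, since no mm9 annotation was at hand to place peaks at genes.

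CPM were computed on library totals scaled by TMM factors. Genes passing filterByExpr entered the quasi-likelihood F test of edgeR 4.0.16 (R 4.3.3, limma 3.58.1), with all 6 libraries in 1 fit of 3 group means, with Benjamini-Hochberg adjustment over 14521 genes and a threshold of 0.05. Intervals are 95% and use the moderated degrees of freedom. CPM carry counting and library error, and the reads have no molecular identifiers. The test was run on simulated data first. Alternatives were DESeq2 1.42.0, its size factors in edgeR, no filter, the replicate block, the library set, only the groups compared, each library left out and, chosen after seeing the data, totals with no TMM factors and the set with each library left out. A fit that leaves 1 library in a group assumes that it varies like the others. Replicates differed beyond sampling noise (chi-square per degree of freedom 17.5 to 23.1).

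The 9 genes, the pathway lists, the marker lists and the tests were chosen with earlier results of these data known. Some genes of the pathway lists are not reported here, and the lists are counted without them. Named genes are the 9, each list gene past the threshold in any contrast, up to 3 of each list with the smallest p for the mean of both knockouts, and the 5 genes nearest to each readout profile. Plots were drawn with matplotlib 3.10.9 in Python 3.11.15.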

Additional observations from a re-analysis of the deposited data

How the results depend on the processing

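None of the 9 genes passed in any of the 4 contrasts under DESeq2, or in edgeR under DESeq2 size factors, no filter, the replicate block, totals with no TMM factors, only the groups compared, or with 1 library left out. The library set was the exception: as a term it gave 1 of the 9 for the mean of both knockouts against wt, 1 for fko and 2 for mko, and with 1 library left out as well 0 to 4, 0 to 2 and 0 to 3. The count of all genes rose with it to 4735 for the mean of both knockouts (742 without it), 3384 for fko (163) and 3589 for mko (340). DESeq2 gave 505 genes for fko and 746 for mko, and only the groups compared gave 33 for fko and 938 for mko. Leaving out 1 library gave 215 to 2212 for the mean of both knockouts, 60 to 1048 for fko, 2 to 990 for mko and 5 to 9 for fko against mko. The replicate block gave 329 genes for fko. Deviations of same-numbered libraries correlated at 0.43 for fko and wt, at -0.24 for mko and wt, and at -0.23 for fko and mko. Library numbers match the library sets in fko and wt, and are crossed in mko, so the block pairs fko with wt as the sets do. The block ended no call of a pathway gene named here.

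Signs of the small fold changes were not stable. With no TMM factors, Smo was -0.02 for the mean of both knockouts and -0.05 for fko, and Gli3 was -0.10 and Boc -0.07 for mko. With 1 library left out, the log2 fold change for the mean of both knockouts ran from -0.14 to 0.08 for Gli1 and from -0.13 to 0.06 for Gli3. For fko it ran from -0.26 to 0.06 for Gli3 and from -0.14 to 0.01 for Boc. For mko it ran from -0.25 to 0.18 for Gli1, -0.14 to 0.16 for Gli3, -0.66 to 0.06 for Hhip, -0.02 to 0.12 for Boc and -0.22 to 0.01 for Cdon. For fko against mko it ran from -0.04 to 0.33 for Ptch1, -0.11 to 0.01 for Smo, -0.21 to 0.22 for Gli1, -0.27 to 0.06 for Gli3, -0.42 to 0.29 for Hhip and -0.20 to 0.03 for Cdon. Ptch1 stayed negative against wt in all of these fits, from -0.51 to -0.19 for the mean of both knockouts with 1 library left out. The cause of these changes was not tested.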

Other observations

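Reads of Ptch1 per read of Gli1, a ratio that needs no library scaling and was chosen after the values were seen, were 0.910 and 1.07 in fko, 0.881 and 0.919 in mko, and 1.06 and 1.31 in wt. One fko library lay between the wt libraries, and the other 3 knockout libraries lay below both. The knockouts differed from wt by -0.32 on the log2 scale, with an exact two-sided permutation p of 0.267, where 0.133 is the smallest that 4 against 2 libraries allow. Reads of Gli1 per read of Gli3, the activator against the main repressor gene, were 0.795 and 0.655 in fko, 0.702 and 0.643 in mko, and 0.735 and 0.656 in wt, with a log2 difference of 0.00 (exact two-sided permutation p = 0.933). Both ratios compare transcripts and not the processed Gli proteins.

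Markers of other cell types were summed in each library. Endothelial markers summed to 8.81 and 9.30 CPM in fko, 8.59 and 5.76 CPM in mko, and 7.03 and 10.7 CPM in wt. Epithelial markers summed to 10.4 and 11.4 CPM in fko, 11.17 and 11.96 CPM in mko, and 12.2 and 8.39 CPM in wt. Skeletal muscle markers were lower in the knockout libraries, at 0.784 and 0.775 CPM in fko, 1.23 and 1.77 CPM in mko, and 2.41 and 2.56 CPM in wt, and so were those of macrophages and leukocytes, at 3.85 and 4.33 CPM in fko, 4.43 and 4.18 CPM in mko, and 6.02 and 7.24 CPM in wt. The melanocyte sum was higher, at 22.9 and 19.5 CPM in fko, 29.2 and 21.1 CPM in mko, and 17.1 and 16.0 CPM in wt. The Schwann cell and glia sum was 167 and 172 CPM in fko, 164 and 158 CPM in mko, and 147 and 174 CPM in wt. The neuron sum was 1259 and 1292 CPM in fko, 889 and 1553 CPM in mko, and 1496 and 1559 CPM in wt, which sets mko1 apart from the other libraries.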
